A study of Mus musculus with 12 samples.

Results

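The 7 genes described here are *S100b*, *Mbp*, *Sox10*, *Scn7a*, *Ngfr*, *Sema3a* and *Clstn3*, a named set of Schwann cell and neurotrophic genes among the 55401 genes counted in subcutaneous white adipose tissue (scWAT). *Scn7a* was chosen from the measured values because its RNA was higher in mutant than in wild-type mice at both temperatures, so those 2 contrasts are given for it as a description with no test. All 7 genes passed the filter on low counts. They do not form 1 class: *Mbp* and *Sox10* are genes of the Schwann cell lineage, *S100b* and *Scn7a* are also made by Schwann cells, *Ngfr* encodes a neurotrophin receptor, *Sema3a* an axon guidance cue and *Clstn3* a calsyntenin.

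Schwann cells wrap the axons of peripheral nerves, and those of sympathetic nerves reach the adipocytes, where noradrenaline released in the cold turns on heat production. The protein S100B is a calcium-binding protein long used as a Schwann cell marker, but thermogenic adipocytes make it too and release it as a trophic signal for sympathetic axons. The gene *Clstn3* encodes the synaptic adhesion protein calsyntenin-3 and, from an adipocyte form of its transcript, calsyntenin-3β, a protein of the endoplasmic reticulum that promotes the secretion of S100B.

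RNA was sequenced from the scWAT of 12 female mice, 3 in each of 4 groups: wild-type (WT) and *Jmjd1a* HY/HY mice, each held for 1 week at thermoneutrality (30°C) or in the cold (8°C). All were kept alone at 30°C for 1 week beforehand, with an age of 16 weeks at the start of treatment. The HY allele, made on C57BL/6J with CRISPR/Cas9, carries the H1122Y substitution, which abolishes the demethylase activity of JMJD1A, an enzyme that removes methyl groups from histone H3 lysine 9. It is present in every cell of the body, the HY/HY females came from 1 founder line, and a substitution leaves gene-level counts unable to check the genotype. The pieces were whole tissue, so fewer cells of a type and less RNA per cell cannot be told apart.

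The libraries held between 13592629 and 26352081 read pairs on the sense strand of genes, and each library from 8°C was smaller than each library from 30°C. Levels below are CPM, read counts scaled to a common library total, with library sizes scaled by TMM, as mean ± SD of 3 mice, and they can be compared between mice but not between genes. A gene is called changed where its edgeR adjusted p is under 0.05 and its fold change exceeds 1.5 or falls short of 0.67. Schwann cell RNA was present: of the defining genes, *Cdh19* lay between 3.79 and 10.3 CPM in all 12 mice, while *Pmp2* was at 0 in all but 1 group, where it had 2 counts. RNA of 21 neuron and sympathetic axon genes was low, with a summed level from 14.3 to 29.7 CPM, of which *Syp* and *Stmn2* made up most, and with 2 counts of *Th* and at most 1 of *Dbh* in a group. The last are genes for enzymes of noradrenaline synthesis, whose RNA stays largely in the nerve cell body. One WT mouse at 30°C, mouse 2, stood apart with a summed level of 12 skeletal muscle markers of 1498 CPM against 8.39 to 28.6 CPM in the other 11 mice, and values without it are given beside those of *S100b*, *Scn7a*, *Mbp* and *Sox10*.

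The promoters of *S100b* and *Clstn3*, the members called in WT mice, are shown because these genes rose together in the cold. Each sequence covers 250 bases before and 50 bases after the transcript start (RefSeq, GRCm38.p6). *Clstn3* has 2 entries, both at the upstream end of its span. The start of the calsyntenin-3β transcript was not identified, so neither sequence can be taken as its promoter. The lines are *S100b* (chr10:76253586-76253885, plus strand), *Clstn3* at its upstream start (chr6:124464735-124465034, minus strand) and *Clstn3* at its downstream start (chr6:124462695-124462994, minus strand), and capitals mark TGACGTCA.
S100b: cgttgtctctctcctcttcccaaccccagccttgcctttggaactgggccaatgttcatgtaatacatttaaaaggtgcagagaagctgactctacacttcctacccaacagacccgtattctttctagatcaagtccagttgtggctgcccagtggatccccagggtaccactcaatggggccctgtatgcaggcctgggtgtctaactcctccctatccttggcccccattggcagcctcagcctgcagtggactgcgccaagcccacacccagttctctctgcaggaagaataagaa
Clstn3 upstream start: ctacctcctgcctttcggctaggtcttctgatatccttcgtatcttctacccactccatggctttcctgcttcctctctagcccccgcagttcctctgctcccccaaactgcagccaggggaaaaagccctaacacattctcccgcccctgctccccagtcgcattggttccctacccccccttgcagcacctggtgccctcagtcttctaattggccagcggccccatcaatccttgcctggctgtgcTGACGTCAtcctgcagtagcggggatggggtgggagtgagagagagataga
Clstn3 downstream start: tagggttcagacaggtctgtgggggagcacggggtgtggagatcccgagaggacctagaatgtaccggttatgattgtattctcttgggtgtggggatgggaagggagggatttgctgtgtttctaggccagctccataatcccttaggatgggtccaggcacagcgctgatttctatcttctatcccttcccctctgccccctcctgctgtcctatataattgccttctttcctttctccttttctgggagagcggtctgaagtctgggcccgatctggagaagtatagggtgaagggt
The motif TGACGTCA, which is its own reverse complement and is known as the cAMP response element, begins 1 base before the upstream *Clstn3* start, and 1.79% of 32851 mouse promoters of this length hold it. Neither the *S100b* promoter nor the downstream *Clstn3* promoter holds it. The nuclear receptor half-site AGGTCA, searched on both strands, was in none of the 6 promoter entries found for 5 members and in 16.3% of all promoters. The SOX site ACAAAG stood only in the *Sema3a* promoter, at 135 bases before and at base 38 after the start, and in 18.7% of all promoters. The motifs were picked after the levels had been seen, and a match is a description of the letters.

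*S100b* (ENSMUSG00000033208.7, GRCm38 chromosome 10, 76253836 to 76261319) rose strongly in the cold in WT mice and not detectably in *Jmjd1a* HY/HY mice. The 3 WT mice at 30°C had 1.77, 3.06 and 2.39 CPM of *S100b*, and the 3 WT mice at 8°C had 29.3, 29.6 and 35.1 CPM. The HY/HY mice had 3.95, 2.27 and 5.3 CPM of *S100b* at 30°C, and 5.17, 5.31 and 4.7 CPM at 8°C. The WT mice in the cold thus stood far above all 9 other mice, among which the HY/HY mice at the 2 temperatures overlapped.

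In WT mice the mean *S100b* level was 2.41 ± 0.649 CPM at 30°C and 31.3 ± 3.26 CPM at 8°C, and the log2 fold change was 3.69 (SE 0.282, edgeR adjusted p = 1.71e-05), or 12.9-fold. In HY/HY mice it was 3.84 ± 1.52 CPM at 30°C and 5.06 ± 0.317 CPM at 8°C, and the log2 fold change was 0.42 with a 95% interval from -0.18 to 1.01 (edgeR adjusted p = 0.509). The difference between these cold responses was -3.27 on the log2 scale (SE 0.383, 95% interval -4.11 to -2.44, edgeR adjusted p = 0.0069). At 8°C the level in HY/HY mice was 0.162 times that in WT mice (log2 fold change -2.63, SE 0.269, edgeR adjusted p = 0.000712), while at 30°C the log2 fold change between genotypes was 0.65 (SE 0.276, edgeR adjusted p = 0.238). These comparisons share libraries, above all the WT mice at 8°C, and are not independent of each other. Without WT mouse 2 at 30°C the cold response of WT mice was 3.92 (adjusted p = 0.000169) and the difference between the responses -3.5 (adjusted p = 0.0145), both by edgeR.

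*Clstn3* (ENSMUSG00000008153.12, chromosome 6, 124430756 to 124464784) rose in the cold in WT mice, and its level in HY/HY mice at 8°C lay between those of the other groups. At 30°C the WT mice had 22.1, 34.9 and 56.0 CPM of *Clstn3* and the HY/HY mice 21.9, 36.04 and 71.4 CPM. At 8°C the WT mice had 249.4, 229.9 and 245.6 CPM of *Clstn3* and the HY/HY mice 135.3, 100.9 and 116.5 CPM. The genotypes overlapped at 30°C and were apart at 8°C, and in both genotypes all cold mice were above all mice at 30°C. Of all genes 20.7% were higher without overlap in the cold in WT and 9.3% in HY/HY mice, and 19.0% were lower in HY/HY mice at 8°C.

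The log2 fold change of *Clstn3* in the cold was 2.68 in WT mice (SE 0.400, edgeR adjusted p = 0.000759), or 6.42-fold from 37.7 ± 17.1 to 241.6 ± 10.3 CPM. In HY/HY mice it was 1.45 (SE 0.385, edgeR adjusted p = 0.142), 2.73-fold from 43.1 ± 25.5 to 117.6 ± 17.2 CPM, which did not pass the test. This depended on both the mice and the method. Without HY/HY mouse 3 at 30°C, the highest of its group, the log2 fold change was 2.02 (edgeR adjusted p = 0.0134). With all mice the rise was called by DESeq2 (1.46, DESeq2 adjusted p = 0.0112) and by edgeR without a filter on low counts (1.43, edgeR adjusted p = 0.0364). Between genotypes at 8°C the log2 fold change was -1.04 (SE 0.379, 95% interval -1.87 to -0.21, edgeR adjusted p = 0.126), and without the same HY/HY mouse at 30°C, which enters only through the shared estimate of spread, the adjusted p was 0.0408. The difference between the cold responses was -1.23 (95% interval -2.40 to -0.06, edgeR adjusted p = 0.307). The counts do not separate calsyntenin-3 from calsyntenin-3β.

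**Figure D1:**
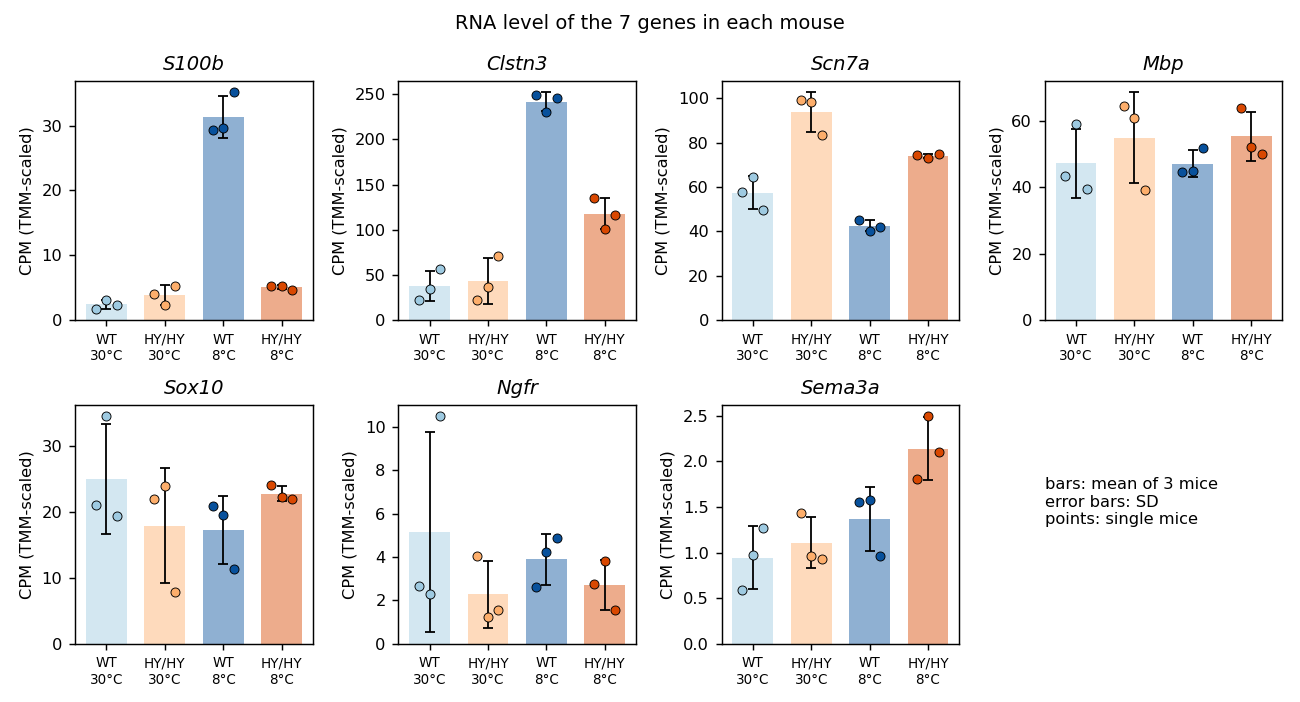
Level of each of the 7 genes in TMM-scaled CPM (vertical axis, linear from 0, a scale of its own for each gene) in the 4 groups of 3 mice, with bars for means, error bars for SD and points for single mice. *S100b* stands at 29.3 to 35.1 CPM in WT mice at 8°C and at most at 5.31 CPM elsewhere, *Clstn3* is highest in the same mice, and *Mbp*, *Sox10* and *Ngfr* overlap between all groups except *Sox10* between the genotypes at 8°C.

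The rise of *S100b* and *Clstn3* in WT mice went together with a rise of thermogenic adipocyte genes. The summed level of 10 thermogenic markers, all of them tested, ran from 101.1 to 228 CPM in WT mice at 30°C, and the HY/HY mice at 30°C had 89.1 to 279.3 CPM. In the cold it ran from 8371 to 9292 CPM in WT mice and from 561 to 1704 CPM in HY/HY mice. In WT mice 8 of these 10 markers were called higher in the cold, beside 10.3% of all genes tested. Of the same markers 3 of 10 were called in HY/HY mice by edgeR and 6 of 10 by DESeq2, beside 0.181% of all genes by edgeR. At 8°C 7 of 10 were called lower in HY/HY than in WT mice, beside 4.42% of all genes. The order of the groups at 8°C was thus that of *S100b* and *Clstn3*, and the part of thermogenic adipocytes in the levels of these genes was not tested.

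*Scn7a* (ENSMUSG00000034810.7, chromosome 2, 66673426 to 66784910) encodes Nax, a sodium channel relative that senses sodium concentration and is made by non-myelinating Schwann cells. Its levels at 30°C were 57.8, 64.6 and 49.7 CPM in WT mice and 99.3, 98.6 and 83.6 CPM in HY/HY mice. At 8°C they were 45.4, 40.4 and 42.0 CPM of *Scn7a* in WT mice and 74.6, 73.1 and 74.8 CPM in HY/HY mice. Every HY/HY mouse was above every WT mouse, which is the pattern the gene was picked for, with 1.64-fold at 30°C and 1.74-fold at 8°C.

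The cold, which the choice did not use, went with a lower *Scn7a* level in both genotypes. In WT mice the log2 fold change was -0.43 (SE 0.112, 95% interval -0.67 to -0.19, edgeR adjusted p = 0.0171), a 0.742-fold change that passed the threshold on p and not the one on fold. The groups did not overlap, which held for 22.7% of all genes in this direction, but without WT mouse 2 at 30°C, the one with muscle RNA, the log2 fold change was -0.34 (adjusted p = 0.0775). With library totals in place of TMM scaling, which moved the median of all genes from -0.07 to -0.41, the log2 fold change of *Scn7a* was -0.77. In HY/HY mice it was -0.34 (SE 0.110, edgeR adjusted p = 0.203), again without overlap, as for 8.99% of all genes in this direction, and the difference between the responses was 0.09 (95% interval -0.25 to 0.43, edgeR adjusted p = 0.828).

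The summed levels of progenitor and macrophage markers also differed between the genotypes. The summed level of 11 fibroblast and adipocyte progenitor markers, all tested, ran from 1287 to 1453 CPM in WT and from 1625 to 2482 CPM in HY/HY mice at 30°C. In the cold the ranges were 1050 to 1293 CPM in WT and 1698 to 2290 CPM in HY/HY mice. That of 8 macrophage markers ran from 230.8 to 242.7 CPM in WT and from 261.5 to 450.5 CPM in HY/HY mice at 30°C, with 189.8 to 196 CPM and 284.9 to 404.2 CPM at 8°C. Both sums, like *Scn7a*, separated the genotypes without overlap at each temperature. The summed level of 37 other Schwann cell and myelin genes was apart only in the cold. It ran from 357.2 to 573.4 CPM in WT and from 535.3 to 621.4 CPM in HY/HY mice at 30°C, with 352.8 to 419.9 CPM and 440 to 624.2 CPM at 8°C. *Pmp22* weighed most in this sum at 8°C, with 131.6 ± 14.0 CPM in WT and 219.2 ± 111.3 CPM in HY/HY mice. Its difference was not called (edgeR adjusted p = 0.161). Of the 31 genes tested, 23 had a log2 fold change above 0 between genotypes at 8°C and 8 below. The part of any of these cells in the *Scn7a* level was not tested. Of the 11 progenitor markers 7 had a log2 fold change above 0 between genotypes at 8°C and 4 below. Single markers were called less uniformly: 1 of 11 progenitor and 0 of 8 macrophage markers were called higher at 30°C by edgeR (7 and 3 at an unadjusted p under 0.05, 2 and 1 by DESeq2), beside 0.562% of all genes, and 5 of 11 and 3 of 8 at 8°C, beside 1.51%.

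*Mbp* (ENSMUSG00000041607.17, chromosome 18, 82475091 to 82585637) encodes myelin basic protein, which compacts the myelin sheath. The WT mice had 43.3, 59.0 and 39.5 CPM of *Mbp* at 30°C and 44.8, 44.8 and 51.9 CPM at 8°C. The HY/HY mice had 64.7, 60.9 and 39.2 CPM of *Mbp* at 30°C and 63.8, 52.3 and 50.04 CPM at 8°C. The groups overlapped in every comparison, and the log2 fold changes were within 0.23 of 0 in all 5 comparisons. Without WT mouse 2 at 30°C, the one with muscle RNA, the log2 fold change of *Mbp* was 0.19 for the cold in WT mice, 0.41 between genotypes at 30°C and -0.18 for the difference of responses, again not called. For the cold in WT mice the 95% interval ran from -0.43 to 0.42, so at this spread a change of *Mbp* by over 1.5-fold lay outside it in either direction. The gene shares its span with *Rpl21-ps8* and *Gm52337*, and its counts include the golli transcripts, which other cells make.

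*Sox10* (ENSMUSG00000033006.10, chromosome 15, 79154913 to 79164490) encodes the transcription factor that sets up and keeps the Schwann cell lineage. Its levels were 21.1, 34.5 and 19.4 CPM in WT and 21.9, 23.9 and 7.89 CPM in HY/HY mice at 30°C. At 8°C they were 20.9, 19.5 and 11.3 CPM of *Sox10* in WT and 24.1, 22.3 and 21.98 CPM in HY/HY mice. The HY/HY mice were above the WT mice at 8°C without overlap, as 16.4% of all genes tested were, but the log2 fold change of 0.40 did not pass the test (edgeR adjusted p = 0.569). In the cold the log2 fold change was -0.54 in WT mice (95% interval -1.33 to 0.25) and 0.34 in HY/HY mice, and the difference of 0.88 between them had an edgeR adjusted p of 0.454. Without WT mouse 2 at 30°C the response of WT mice was -0.23, the difference 0.57 and the log2 fold change between genotypes at 30°C -0.17 in place of -0.48.

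*Sox10* is also a gene of mammary epithelium, which lies within this fat pad in female mice. Of 12 mammary markers 10 were tested, and of the milk protein genes *Csn2* and *Wap* were at 0 to 2 counts in each group while *Csn3* had mean levels from 54.5 to 133.9 CPM. The summed marker level ran from 3483 to 5798 CPM in WT mice and from 903.3 to 2382 CPM in HY/HY mice at 30°C, with 2150 to 2440 CPM and 1315 to 2049 CPM at 8°C. The mouse with the highest sum, WT mouse 2 at 30°C, was highest in *Sox10*, and the mouse with the lowest sum, HY/HY mouse 3 at 30°C, was lowest in *Sox10*. At 8°C the order was the opposite for the sum, with the HY/HY mice above the WT mice in *Sox10* and below them in the marker sum. Single markers were split there, with a log2 fold change between genotypes above 0 for 4 of the 10 tested and below 0 for 6. *Krt5* had a mean of 48.4 CPM in HY/HY and 25.9 CPM in WT mice, and *Krt8*, which weighs more in the sum, 338.1 and 585.4 CPM. The part of mammary tissue in the *Sox10* level was not tested.

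*Ngfr* (ENSMUSG00000000120.6, chromosome 11, 95568818 to 95587698) encodes p75NTR, a receptor for all neurotrophins, and marks repair and immature Schwann cells among others. The WT mice had 2.67, 2.31 and 10.5 CPM of *Ngfr* at 30°C and 2.6, 4.22 and 4.87 CPM at 8°C. The HY/HY mice had 4.06, 1.24 and 1.56 CPM of *Ngfr* at 30°C and 2.78, 3.81 and 1.54 CPM at 8°C. One mouse, WT mouse 3 at 30°C, stood above all others, and the groups overlapped in every comparison. That mouse also had the highest summed level of 12 lymph node markers, 34.1 CPM against 7.96 to 28.6 CPM in the others. No comparison of *Ngfr* passed the test, and the cold response of WT mice turned from -0.39 to 0.65 on the log2 scale without that mouse. Between genotypes at 30°C the log2 fold change was -1.15 (95% interval -2.48 to 0.17), and without the same mouse it was -0.12 (edgeR adjusted p = 0.921).

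*Sema3a* (ENSMUSG00000028883.17, chromosome 5, 13124822 to 13603485) encodes a secreted semaphorin that repels sympathetic and sensory axons. The WT mice had 0.589, 0.973 and 1.27 CPM of *Sema3a* at 30°C and 1.56, 1.58 and 0.961 CPM at 8°C. The HY/HY mice had 1.43, 0.963 and 0.935 CPM at 30°C and 1.81, 2.5 and 2.11 CPM at 8°C. The HY/HY mice at 8°C were above all 9 other mice. Of all genes 9.3% were higher without overlap in the cold in HY/HY mice, and 16.4% in HY/HY over WT mice at 8°C. The *Sema3a* levels rest on 13 to 40 counts per library. The log2 fold change was 0.94 for the cold in HY/HY mice (SE 0.323, 95% interval 0.23 to 1.64, edgeR adjusted p = 0.225) and 0.65 between genotypes at 8°C (edgeR adjusted p = 0.275), and neither passed the test.

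**Figure D2:**
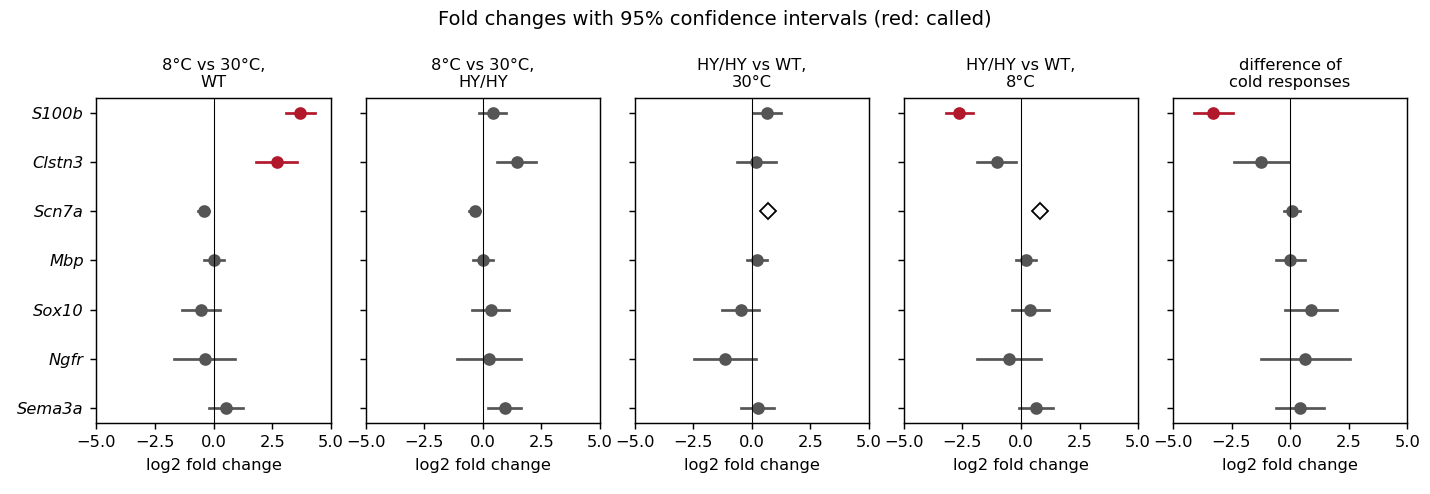
Log2 fold changes (horizontal axis) of the 7 genes in the 5 comparisons, with 95% confidence intervals as lines; red points passed the call and open diamonds are the *Scn7a* contrasts used to pick that gene, drawn without an interval. Only *S100b* and *Clstn3* in WT mice in the cold, and *S100b* between genotypes at 8°C and in the difference of cold responses, are red.

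Counted over the set, 2 of 7 genes were called higher and 0 of 7 lower in the cold in WT mice, where 10.3% of all 16540 genes tested were called higher and 6.93% lower. By edgeR at an unadjusted p under 0.05 the count was 3 of 7, with *Scn7a* as the third, and DESeq2 called the same number as edgeR, 2. In HY/HY mice 0 of 7 were called in the cold against 0.181% of all genes called higher and 0.0665% lower, with 3 of 7 at an unadjusted p under 0.05 and 1 called by DESeq2. Between genotypes at 30°C 0 of 6 were called, *Scn7a* left aside, against 0.562% higher and 0.441% lower, with 1 of 6 at an unadjusted p under 0.05 and 0 by DESeq2. At 8°C 1 of 6, *S100b*, was called lower and 0 higher, against 4.42% lower and 1.51% higher, and DESeq2 called 2. For the difference between the cold responses 1 of 7, again *S100b*, was called lower and 0 higher, against 2.07% lower and 0.169% higher, and DESeq2 also called 1. The median log2 fold changes of the members tested were -0.01, 0.34, 0.20, -0.14 and 0.09 in this order, beside -0.07, -0.02, -0.01, 0.01 and 0.04 for all genes. For a single gene the exact permutation test of 3 mice against 3 cannot go below p = 0.1.

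Of 37 other Schwann cell and myelin genes 31 were tested, and in the cold in WT mice 1 was called higher and 1 lower, beside 10.3% and 6.93% of all genes, with a median log2 fold change of -0.14. The number called was 7 with library totals, 4 without a filter and from 1 to 4 with single libraries left out. *Egr2*, a transcription factor of myelination that other cells also use as an immediate early gene, rose from 2.73 ± 1.01 to 10.02 ± 3.42 CPM (log2 fold change 1.88, edgeR adjusted p = 0.0076), and this call held with each library left out. The log2 fold change of *Egr2* in HY/HY mice was 0.10, and the difference between the responses, -1.78, was not called (edgeR adjusted p = 0.159). *Erbb3*, the neuregulin receptor of Schwann cells and also a gene of mammary epithelium, fell from 131.4 ± 55.0 to 58.8 ± 10.4 CPM (log2 fold change -1.16, edgeR adjusted p = 0.0257). Its call was lost without WT mouse 1 or 2 at 30°C or WT mouse 2 or 3 at 8°C, with adjusted p up to 0.099, and the mammary marker sums given above were also lower in WT mice at 8°C than at 30°C, their part not tested.

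Among the same 31 genes edgeR called 0 in the cold in HY/HY mice (1 at an unadjusted p under 0.05, 0 by DESeq2) and 0 for the difference between the cold responses (2 and 1). Of all genes 0.181% were called higher and 0.0665% lower in the first comparison, and 0.169% and 2.07% in the second. *Matn2*, an extracellular matrix protein that Schwann cells make, was higher in HY/HY mice at 30°C, 54.5 ± 15.99 against 26.1 ± 0.952 CPM (log2 fold change 1.07, edgeR adjusted p = 0.0406), and *Cdh19*, a cadherin of the Schwann cell lineage, at 8°C, 8.62 ± 1.44 against 4.39 ± 0.562 CPM (0.97, edgeR adjusted p = 0.0431). Both calls stood at the edge of the threshold. That of *Matn2* held in 4 of 12 fits with 1 library left out and reached an adjusted p of 0.118 without WT mouse 2 at 30°C, and it was also lost with library totals or only the libraries of the comparison. That of *Cdh19* held in 3 of 12 and reached 0.157 without HY/HY mouse 3 at 8°C. The median log2 fold change of the list between genotypes was 0.13 at 30°C and 0.23 at 8°C, beside -0.01 and 0.01 for all genes, and 23 of 31 genes lay above 0 at 8°C.

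**Figure D3:**
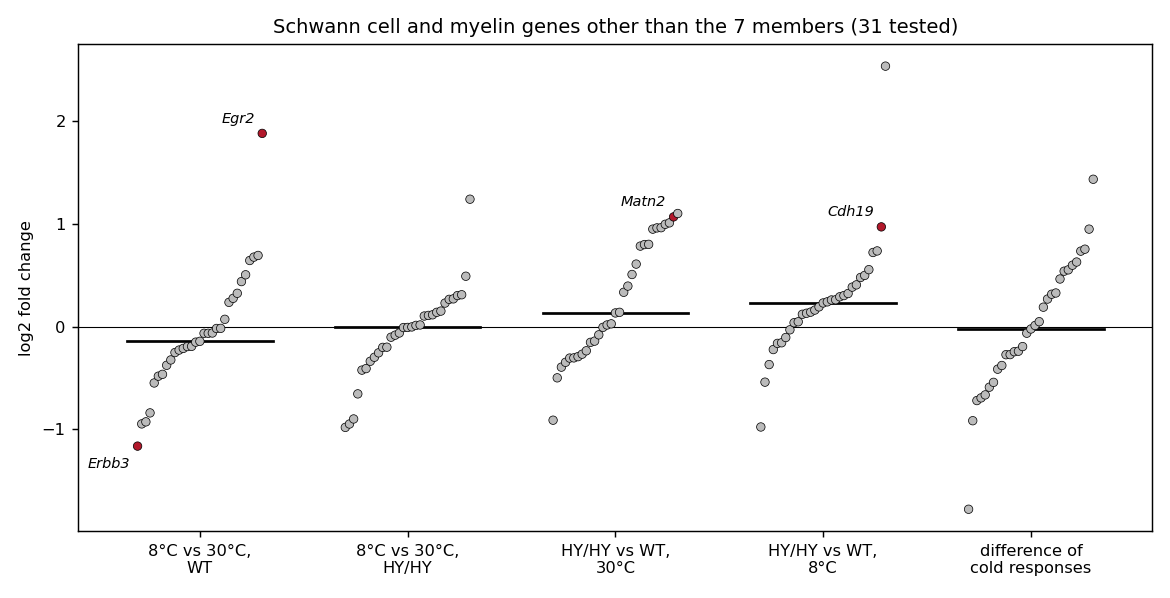
Log2 fold change (vertical axis) of the 31 tested Schwann cell and myelin genes other than the members, 1 point a gene ordered by value within each of the 5 comparisons, with the median as a black line and called genes in red with their names. The medians lie between -0.14 and 0.23, and 1 or 2 genes at most are red in any comparison.

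Calls among neurotrophic ligands and receptors are given beside the share of all genes called. Of 18 ligands 12 were tested. Between genotypes at 8°C edgeR called 0 of 12 higher and 1 lower, beside 1.51% and 4.42% of all genes, and 0 in the other comparisons. In the cold the shares of all genes called higher and lower were 10.3% and 6.93% in WT mice. In HY/HY mice they were 0.181% and 0.0665%. They were 0.562% and 0.441% between genotypes at 30°C, and 0.169% and 2.07% for the difference between the cold responses. DESeq2 called 2 ligands in WT mice in the cold, 1 between genotypes at 30°C and 1 at 8°C. The single edgeR call was *Manf*, an endoplasmic reticulum stress protein with neurotrophic action, lower in HY/HY mice at 8°C (38.0 ± 4.50 against 60.3 ± 6.71 CPM, log2 fold change -0.66, edgeR adjusted p = 0.00832). Without HY/HY mouse 3 at 8°C *Manf* passed on p (0.0482) and not on fold, and its call was also lost with library totals. *Nrg4*, which adipocytes release, ranged from 100.7 ± 50.1 to 129.3 ± 23.4 CPM over the groups, and *Gdnf*, which had at most 10 counts in a group, was too low to test.

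Of 19 receptor genes 17 were tested. In WT mice in the cold 0 of 17 were called higher and 2 lower, beside 10.3% and 6.93% of all genes. Between genotypes at 8°C 1 was called higher and 1 lower, beside 1.51% and 4.42%, and edgeR called 0 in the other comparisons. In HY/HY mice in the cold 4 of 17 had an unadjusted p under 0.05 and DESeq2 called 2, beside 0.181% and 0.0665% by edgeR. For the difference between the cold responses these counts were 3 and 2, beside 0.169% and 2.07%. Between genotypes at 30°C they were 4 and 0, beside 0.562% and 0.441%. In WT mice in the cold *Erbb2*, the partner of *Erbb3*, fell from 79.7 ± 22.5 to 38.9 ± 1.44 CPM (log2 fold change -1.04, edgeR adjusted p = 0.0298) and *Bex3*, which encodes a protein that binds p75NTR, from 43.8 ± 9.62 to 22.5 ± 1.39 CPM (-0.96, edgeR adjusted p = 0.0162). Both calls were lost without WT mouse 1 or 2 at 30°C or WT mouse 2 or 3 at 8°C, and that of *Erbb2* also without WT mouse 1 at 8°C. The adjusted p went up to 0.111 for *Erbb2*, without WT mouse 2 at 30°C, and to 0.0637 for *Bex3*, without WT mouse 2 at 8°C. At 8°C *Ntrk3*, the receptor of neurotrophin-3, was lower in HY/HY mice, 17.2 ± 7.35 against 52.3 ± 7.80 CPM (log2 fold change -1.60, edgeR adjusted p = 0.0135), and *Il6st*, the shared gp130 receptor chain, was higher, 201.8 ± 23.7 against 126 ± 6.51 CPM (0.68, edgeR adjusted p = 0.00657). The call of *Il6st* held with each library left out, and that of *Ntrk3* was lost without WT mouse 2 at 8°C, HY/HY mouse 1 at 8°C or HY/HY mouse 3 at 8°C (adjusted p = 0.0691, the highest).

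In WT mice 4 semaphorin receptor genes were called higher in the cold and 1 lower, while *Sema3a* itself was not called there. Of 29 semaphorins, other guidance cues and receptors 25 were tested, with 5 called higher and 2 lower in WT mice, beside the 10.3% and 6.93% of all genes given above. In HY/HY mice edgeR called 0 in the cold (1 at an unadjusted p under 0.05, 0 by DESeq2), where only 0.181% of all genes were called higher and 0.0665% lower. *Nrp2*, a semaphorin coreceptor, rose from 30.6 ± 6.22 to 67.4 ± 12.2 CPM (log2 fold change 1.14, edgeR adjusted p = 0.00189), *Plxna2* from 16.2 ± 5.22 to 29.4 ± 3.11 CPM (0.86, 0.0106 by edgeR) and the ephrin gene *Efnb2* from 13.4 ± 1.47 to 22.9 ± 4.52 CPM (0.78, 0.00922 by edgeR). These 3 calls held with each library left out. *Plxna1* and *Plxnd1* were also called higher, and *Plxna3* and *Sema4d* lower by 1.03 and 1.01 on the log2 scale, but leaving out 1 library ended these calls in 3, 6, 4 and 5 of 12 cases respectively. The highest adjusted p was 0.0608 for *Plxna1* and 0.176 for *Plxnd1*, both without WT mouse 1 at 8°C, 0.109 for *Plxna3* without WT mouse 2 at 30°C and 0.123 for *Sema4d* without WT mouse 3 at 8°C. With library totals in place of TMM the calls of *Plxna2*, *Efnb2*, *Plxna1* and *Plxnd1* were lost. The difference between the genotypes' cold responses was called for 0 of the 25 genes (5 at an unadjusted p under 0.05, 0 by DESeq2), so these responses were not shown to differ. Endothelial and mural markers moved with these genes: their summed level ran from 855.8 to 1249 CPM at 30°C and from 1387 to 1710 CPM at 8°C in WT mice, with 4 of 10 called higher and 1 lower, and their part was not tested. *Nrp1*, the coreceptor to which *Sema3a* binds, ranged from 50.2 ± 13.0 to 68.4 ± 8.68 CPM and was not called.

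Between genotypes the calls in the guidance list were *Sema3c* at 30°C (22.1 ± 2.50 against 6.83 ± 3.61 CPM, log2 fold change 1.68, edgeR adjusted p = 0.0268) and the axon guidance ligand *Slit3* at 8°C (52.9 ± 4.96 against 25.1 ± 1.65 CPM, 1.07, edgeR adjusted p = 0.0219). Both were higher in HY/HY mice. The first was lost without WT mouse 1 at 30°C (adjusted p = 0.072, the highest), WT mouse 2 or 3 at 8°C or HY/HY mouse 1 at 8°C, and with library totals or only the libraries of the comparison. The second was lost without any WT mouse at 8°C or HY/HY mouse 1 or 3 at 8°C (0.0861 without mouse 3, the highest).

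No relative of *Clstn3* was called. *Clstn1* had a log2 fold change of -0.46 in the cold in WT mice (edgeR adjusted p = 0.0305), not past the threshold on fold, and *Clstn2* one of 0.61 (edgeR adjusted p = 0.205). Its level in HY/HY mice was 3.3 ± 1.13 CPM in the cold against 1.61 ± 0.322 CPM at 30°C, without overlap, as for 9.3% of all genes in this direction, with a log2 fold change of 1.03 that was not called (SE 0.321, edgeR adjusted p = 0.191). Of 7 genes in the list of calsyntenins and synaptic adhesion partners 5 were tested, and the call was *Nlgn2*, lower in WT mice in the cold (28.7 ± 2.84 against 44.2 ± 3.62 CPM, log2 fold change -0.62, edgeR adjusted p = 0.0437), which held in 5 of 12 fits with 1 library left out and had an adjusted p of 0.146 without WT mouse 3 at 8°C. Of 13 other sodium channel genes 4 were tested and 0 called by edgeR or by DESeq2 in any comparison, with up to 2 at an unadjusted p under 0.05. The shares of all genes called by edgeR in 1 direction ran from 0.0665% to 10.3% over the comparisons, so 4 genes are too few to read anything from 0 calls. Genes of pain-sensing axons in that list were at or near 0, with 0 counts of *Scn10a* and 1 of *Scn9a*.

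Of 21 neuron and sympathetic axon genes 4 had enough counts to be tested. *Syp*, which encodes the synaptic vesicle protein synaptophysin, rose in the cold in WT mice from 9.97 ± 1.51 to 17.1 ± 1.26 CPM (log2 fold change 0.78, edgeR adjusted p = 0.0155) and was lower in HY/HY mice at 8°C, at 10.2 ± 0.999 CPM (-0.75, edgeR adjusted p = 0.0443). The difference between its cold responses was not called (-1.06, edgeR adjusted p = 0.0812). The rise held in 10 of 12 fits with 1 library left out (adjusted p of 0.06 without WT mouse 3 at 8°C) and the genotype difference in 5 of 12 (0.15 without the same mouse), and both were lost with library totals or with both strands counted. *Elavl3*, a neuronal RNA-binding protein, went from 0.232 ± 0.122 to 1.31 ± 0.321 CPM in WT mice (log2 fold change 2.52, edgeR adjusted p = 0.00308), a call kept with each library left out at few counts.

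Over the 12 libraries the genes whose log2 CPM was most like that of *S100b*, among 12018 genes that averaged 50 counts or more, were *Gmpr* (Pearson r = 0.985), *Egln1* (0.979) and *Cox5b-ps* (0.977). For *Clstn3* they included *Mtch2* (0.979) and *Atpaf2* (0.979). For *Scn7a* they were *Rbms3* (0.939), *Lrrc3* (0.934) and *Extl2* (0.933). The libraries share groups and depth, and once the group means were taken off the r fell to 0.761 for *Gmpr*, 0.638 for *Egln1*, 0.538 for *Cox5b-ps*, -0.17 for *Lrrc3* and -0.19 for *Extl2*. On that scale it was 0.949 for *Rbms3*, 0.912 for *Mtch2* and 0.977 for *Atpaf2*.

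For *Sox10* the most similar genes were *Plet1* (0.948), *Tfap2c* (0.929) and *Itprid1* (0.927), of which *Tfap2c* encodes a transcription factor known from mammary epithelium. For *Mbp* they were *Il1rl2* (0.883), *Gatm* (0.880) and *Antxr1* (0.865), for *Ngfr* *Cnot8* (0.901), *Klf4* (0.866) and *Fkbp11* (0.848), and for *Sema3a* *Fzd3* (0.904), *Hbp1* (0.875) and *Snai2* (0.853). No gene of the Schwann cell and myelin list was among the 3 genes nearest to any member.

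**Figure D4:**
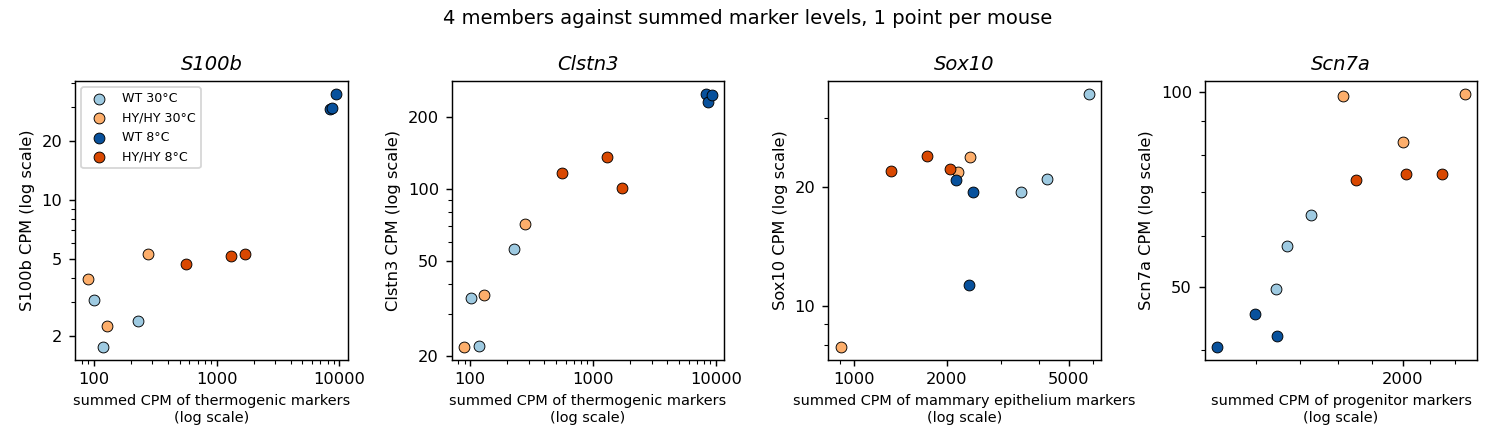
Levels of *S100b*, *Clstn3*, *Sox10* and *Scn7a* in CPM (vertical axes, log scale) against the summed CPM of thermogenic, mammary epithelium and progenitor markers (horizontal axes, log scale), 1 point per mouse and a colour per group. The WT mice at 8°C stand alone at 8371 to 9292 CPM of thermogenic markers with the highest *S100b* and *Clstn3*, and the mice with the lowest and the highest mammary sum, 903.3 and 5798 CPM, have the lowest and the highest *Sox10*, while at 8°C the HY/HY mice are above the WT mice in *Sox10* and below them in the mammary sum. Single mammary markers went both ways between the genotypes at 8°C.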

How the data were processed

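RNA from the scWAT of 12 female mice was sequenced as paired 50-base reads. The authors trimmed the reads with fastp, aligned them to mm10 with STAR and GENCODE M25 genes, and deposited counts of read pairs per gene, unnormalised and unfiltered, for both strands and each strand. Pairs aligned to several places, 26.7% to 32.2%, were not counted by the authors. The entries that name no gene also held unaligned pairs (25.1% to 28.8%), pairs outside genes (1.99% to 3.20%) and ambiguous pairs (0.93% to 1.10%), and were left out. StringTie values are named in the submitters' notes and were not used here.

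The sense-strand counts, 95.5% to 96.2% of pairs on genes, with totals of 13592629 to 26352081 (median 18130585), were tested with edgeR 4.0.16 under R 4.3.3. Of 55401 IDs 32589 were matched to a symbol, and 2662 with a shared symbol were left out of the lists. TMM factors ranged from 0.859 to 1.17. filterByExpr kept 16540 genes. All 12 libraries entered 1 quasi-likelihood fit that gave each group its own mean (8 residual degrees of freedom, common biological coefficient of variation 20.7%), and two-sided p-values were adjusted by Benjamini-Hochberg over all genes for each of 5 comparisons. The difference between cold responses was called on the adjusted p alone. Correlations used log2 CPM with a prior count of 2.

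The members and lists were chosen with earlier results of these data known, and *Scn7a* was picked on its genotype contrasts. The genes named are all members, for each the 3 genes of highest correlation, *Erbb3*, and up to 4 called genes per list and comparison; other genes were named after their values were seen, and some genes that the rule covers are not reported here. Alternatives were DESeq2 1.42.0, library totals, no filter, at least 10 counts in every library, only the libraries of a comparison, both strands, mitochondrial DNA genes left out of library sizes, the replicate number as a block, and each library left out. The fit was checked on simulated counts. No batch is named in the labels. The labels do not say more of the mice than their group and number, so p-values measure the spread between these samples.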

Additional observations from a re-analysis of the deposited data

Results flagged for a closer look

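*S100b* was singled out because its response to cold differed between the genotypes by a test of the difference itself. The log2 fold change of HY/HY mice minus that of WT mice was -3.27 (SE 0.383, edgeR adjusted p = 0.0069), with all 3 WT mice at 8°C above all other mice. It was called in all 19 alternatives that gave an adjusted p, with log2 values from -3.55 to -2.98 when single libraries were left out and the highest adjusted p, 0.0331, without HY/HY mouse 1 at 8°C. Groups of 3 are too small for a check of single outlying samples.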

How the results depend on the processing

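The calls of *S100b* and *Clstn3* in WT mice in the cold, and of *S100b* between genotypes at 8°C, held in 20 of 20 alternatives, with the highest adjusted p at 0.000303, 0.00539 and 0.00973. *Clstn3* was also called in HY/HY mice in the cold with DESeq2 (log2 fold change 1.46) and without a filter (1.43), and at 8°C between genotypes with DESeq2 (-1.06) and with only the libraries of the comparison (-1.03). The number of members called was then 1 and 1 in the cold in HY/HY mice, and 2 and 2 at 8°C, and with single libraries left out it ran from 0 to 1 and from 1 to 2. *Scn7a* was called in WT mice in the cold with library totals (-0.77).

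The sign of some small, uncalled log2 fold changes turned. For *Mbp* in WT mice in the cold it was 0.032 with DESeq2, 0.008 with only the libraries of the comparison and 0.01 with both strands, in HY/HY mice -0.15 with library totals and -0.006 without a filter, and for the difference of responses -0.012 with DESeq2. With single libraries left out these 3 ran from -0.12 to 0.19, from -0.18 to 0.14 and from -0.18 to 0.15. Such ranges also crossed 0 for *Sox10* in HY/HY mice in the cold (-0.006 to 0.61), for the *Scn7a* difference of responses (-0.004 to 0.18), for *Ngfr* in the cold in WT (-0.75 to 0.65) and HY/HY mice (-0.069 to 0.98) and for its difference (-0.40 to 1.36), and between genotypes at 30°C for *Sema3a* (-0.003 to 0.49) and *Clstn3* (-0.37 to 0.59).

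Of the Schwann cell and myelin genes, library totals gave 7 calls and no filter 4 in WT mice in the cold. At 30°C between genotypes library totals and only the libraries of the comparison gave 0, DESeq2 and no filter 2. At 8°C DESeq2, no filter and only the libraries of the comparison each gave 2, and DESeq2 gave 1 for the difference of responses. With single libraries left out the number ran from 1 to 4 in WT and from 0 to 1 in HY/HY mice in the cold, from 0 to 2 at 30°C and from 0 to 2 at 8°C. The cause of these changes was not tested.

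The replicate numbers were not taken to pair the samples, since the deviations of same-numbered samples from their group means did not all correlate above 0.1: r ran from -0.07 to 0.14 for replicate 1, from -0.04 to 0.20 for replicate 2 and from 0.11 to 0.35 for replicate 3. With the replicate block the *Mbp* cold response of WT mice was 0.019, and the Schwann cell list had 3 calls at 30°C and 2 at 8°C. Of the 4 libraries of replicate 3, 4 correlated best with their own number, a hint from the data, against 1 and 2 of 4 for the others. The levels of *Sema3a* rest on 13 to 40 counts per library, which limits their precision.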
